A study of Mus musculus with 24 samples.

Results

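The collagen chain genes each encode 1 alpha chain of a collagen. They were taken here as the protein-coding genes of GENCODE release M21 whose symbol is Col, a number, a and a number. There were 44 such genes among the 39056 genes of the count table, and all 44 were present in it. Sequencing covered RNA of leukocytes (CD45+) and of all other cells (CD45-), which include epithelium, endothelium, mesenchyme and glia, sorted from mouse ileum after the Peyer's patches had been taken out. The libraries came from C57BL/6 mice (C57BL/6 J in the study's methods) aged 9 to 10.3 weeks, with 3 libraries for each of 4 genotypes in each fraction, 24 in all. Every mouse carried Il4ra flanked by loxP sites. Hoil1+/+Il4ra f/f mice kept both genes, Hoil1-/-Il4ra f/f mice carried a disrupted allele of Hoil1 (Rbck1), and the Hoil1+/+Il4ra ΔIEC and Hoil1-/-Il4ra ΔIEC mice carried in addition a Cre transgene driven by the Vil1 promoter, which is active in intestinal epithelial cells (IECs) and removes Il4ra there. The study describes the Hoil1-/- mice as partly deficient, with the N-terminal domain of HOIL1 still made at a low level. The disruption of Hoil1 was in all cells, whereas the deletion of Il4ra was aimed at IECs, which are not the usual source of most collagens. The lamina propria was digested with collagenase, which acts on collagen protein, and 50% of the IECs were put back before the sort, so the share of each cell type in the CD45- fraction was set in part by the preparation.

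Collagens are secreted proteins in which 3 alpha chains wind around each other. The fibrillar collagens, types I, III and V, build the fibers of the lamina propria and submucosa and are made mainly by fibroblasts. Type IV collagen forms the network of basement membranes under epithelium and around vessels and muscle, type VI forms beaded filaments near cells, and other types decorate fibers, join basement membranes to them or sit in cell membranes. In bulk samples such as these, fewer cells of a type and less RNA per cell cannot be told apart.

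The counts assigned to genes ranged from 6.03 to 68.3 M per CD45- library and from 14.9 to 76.8 M per CD45+ library, where M stands for 1000000. Levels are given as CPM, the counts per 1000000 of a library size scaled by the TMM method of edgeR over all 24 libraries. Results are over the 21 libraries of the study's sample list, 11 of CD45- and 10 of CD45+ cells, unless a left-out library is named. The 3 left-out libraries are replicate 3 of CD45- Hoil1-/-Il4ra f/f, replicate 1 of CD45+ Hoil1-/-Il4ra f/f and replicate 3 of CD45+ Hoil1-/-Il4ra ΔIEC, which the study removed as outliers of a principal component analysis. Replicates were numbered in the order of the deposited samples, and the labels do not say which libraries share a mouse, so p-values measure the spread between these libraries.

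Rbck1, the targeted gene, followed its labels. In CD45- cells it was at 73.3 to 110 CPM (median 91.3) in the 6 Hoil1+/+ libraries and at 0 to 7.29 CPM (median 3.66) in the 6 Hoil1-/- libraries, left-out libraries included. In CD45+ cells it was at 90.4 to 158 CPM (median 136) in Hoil1+/+ and 5.38 to 15.9 CPM (median 7.36) in Hoil1-/- libraries. The groups did not overlap in either fraction. Il4ra did not separate the ΔIEC from the f/f libraries of CD45- cells, where it was at 45.3 to 129 CPM (median 77.3) and 56.1 to 157 CPM (median 72.2). This fraction also held cells other than IECs, at which the deletion was not aimed. In CD45+ cells Il4ra was at 104 to 296 CPM (median 253) in ΔIEC and 89.3 to 271 CPM (median 112) in f/f libraries, with overlap. The sort also followed its labels. All 10 leukocyte markers were lower in CD45- than in CD45+ cells and all 12 epithelial markers were higher, by edgeR's quasi-likelihood test with Benjamini-Hochberg adjustment over all genes. Laptm5, the most abundant leukocyte marker, was at 3.71 CPM in CD45- and 1284 CPM in CD45+ cells (means).

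The collagen chains were expressed mainly in the CD45- fraction. Their summed level ranged from 1733 to 20678 CPM (median 4482) over the 11 CD45- libraries and from 71.1 to 370 CPM (median 110) over the 10 CD45+ libraries, and the ranges did not overlap. The summed level thus varied 11.9-fold among CD45- libraries and 5.21-fold among CD45+ libraries. Of the 44 chains, 43 had a count in some CD45- library and 36 in some CD45+ library. A mean of 10 CPM or more was reached by 20 chains in CD45- and 6 in CD45+ cells, and a mean of 100 CPM by 10 and 0 chains. Col10a1, the chain of hypertrophic cartilage, had no count in any of the 24 libraries.

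**Figure D1:**
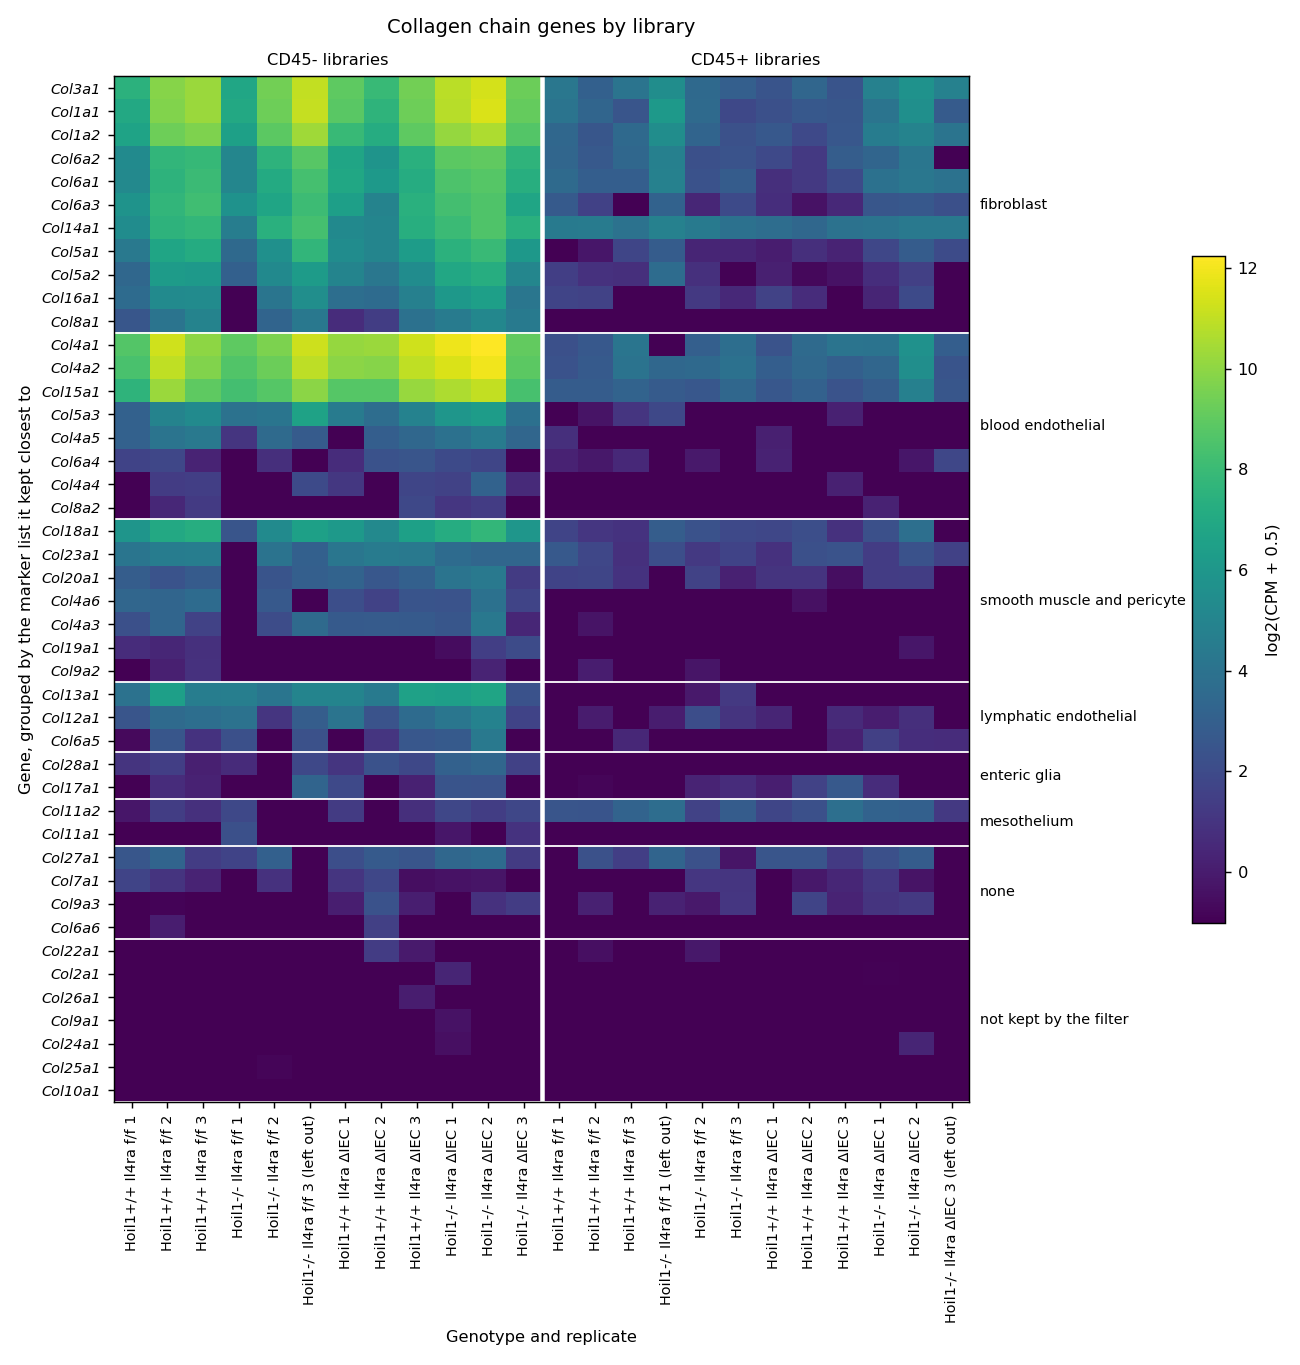
Level of the collagen chains in each library, as log2(CPM + 0.5), with chains in rows and the 24 libraries in columns grouped by fraction and genotype. Rows are grouped by the marker list each chain kept closest to. Col4a1, Col4a2, Col1a1, Col1a2, Col3a1 and Col15a1 are high in every CD45- library and low in every CD45+ library, and the chains of low level show scattered zeros.

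The basement membrane chains Col4a1 and Col4a2 led the CD45- fraction. These chains form the most widespread type IV collagen molecule. Per kilobase of annotated exon, a scale on which genes can be compared roughly, Col4a1 was at a mean of 234 and Col4a2 at 211 CPM per kb. Next were Col1a1 at 130, Col15a1 at 124, Col3a1 at 89.8, Col1a2 at 44.7, Col6a1 at 40.4, Col6a2 at 24.3, Col14a1 at 21.7 and Col6a3 at 13.8 CPM per kb. In CD45+ cells the order was Col14a1 at 2.40, Col4a2 at 2.03, Col4a1 at 1.99, Col1a1 at 1.92, Col6a1 at 1.76, Col3a1 at 1.65 and Col15a1 at 1.41 CPM per kb. Neighbors in both orders differed by less than the spread between libraries. The length used covers the exons of all annotated transcripts of a gene and can exceed that of the RNA expressed. It was 6.56 kb for Col1a1 and 12.4 kb for Col1a2, whose counts had a median ratio of only 1.37 in CD45- libraries. The ratio of Col4a1 to Col4a2 counts was much steadier than either level, at 1.13 to 1.34 in all 11 CD45- libraries.

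**Figure D2:**
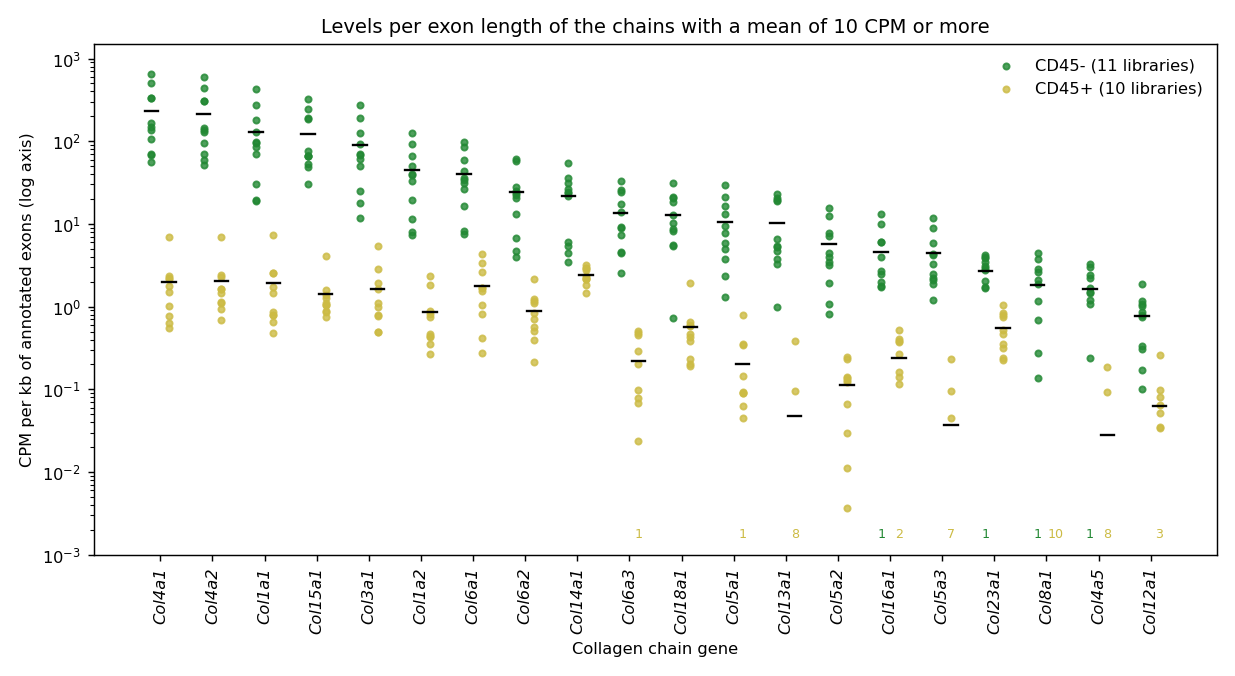
Level per kilobase of annotated exon (CPM per kb, log axis) in CD45- and CD45+ libraries for the chains with a mean of 10 CPM or more, 1 point per library, black lines at the means and digits at the foot for libraries with no count. Col4a1 and Col4a2 lead in CD45- cells at 234 and 211 CPM per kb, and Col14a1 leads in CD45+ cells at 2.40 CPM per kb.

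Col4a1 and Col4a2 lie head to head on chromosome 8, Col4a1 on the minus strand (chr8:11198423-11312826) and Col4a2 on the plus strand (chr8:11312805-11449287, GRCm38). Their first exons overlap by 22 bases, shown here because the neighbors had the steadiest ratio in CD45- libraries of those computed here. RefSeq's windows of 300 bases around the starts of the 2 genes share 78 bases. The overlap reads as follows on the plus strand (chr8:11312805-11312826, GRCm38.p6), all of it in capitals because all of it belongs to both genes.
Col4a1 and Col4a2 overlap: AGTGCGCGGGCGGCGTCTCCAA

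The fibrillar chains were next. Col1a1 and Col1a2 make type I collagen, the main fiber of connective tissue. Col1a1 was at 125 to 2821 CPM (median 631) in CD45- and 3.16 to 47.8 CPM (median 7.60) in CD45+ libraries, and Col1a2 at 91.2 to 1552 CPM (median 481) and 3.33 to 29.5 CPM (median 7.51). Col3a1, whose product forms thin fibers with type I, was at 115 to 2672 CPM (median 673) and 4.85 to 53.1 CPM (median 10.3). For each of these chains every CD45- library was above every CD45+ library. The ratio of Col3a1 to Col1a1 counts was 0.918 to 1.40 in CD45- libraries. The chains of type V, which sit in the core of fibers and limit their width, were lower. Col5a1 was at 89.0 ± 74.3 CPM (SD, n = 11) in CD45- and 1.71 ± 2.03 CPM (SD, n = 10) in CD45+ cells, Col5a2 at 54.3 ± 46.0 and 1.07 ± 0.813 CPM, and Col5a3 at 29.9 ± 22.5 and 0.253 ± 0.512 CPM.

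The other fibrillar chains were low. Col11a1, Col2a1, Col24a1 and Col27a1 had means of 0.535, 0.0718, 0.0211 and 6.00 CPM in CD45- cells. Col11a2 had a higher level in CD45+ cells. It was at 2.54 to 13.9 CPM (median 5.88) in CD45+ and 0 to 3.09 CPM (median 1.98) in CD45- libraries. The ranges overlapped between 2.54 and 3.09 CPM. Col24a1, at a mean of 0.0807 CPM, and Col9a3, at 0.947 against 0.845 CPM, also had higher means in CD45+ than in CD45- cells. Col24a1 did not pass the filter on low counts, and Col9a3 did not pass the test between fractions.

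Among the other basement membrane chains, Col15a1 and Col18a1 carry heparan or chondroitin sulfate chains and release endostatin-like fragments. Col15a1 was at 194 to 2081 CPM (median 426) in CD45- and 4.77 to 26.3 CPM (median 6.87) in CD45+ libraries. Col18a1 was at 5.16 to 217 CPM (median 72.0) and 1.35 to 13.6 CPM (median 3.16), and its ranges overlapped through 1 CD45- library, Hoil1-/-Il4ra f/f replicate 1, at 5.16 CPM. The type IV chains of restricted basement membranes were low. Col4a5 was at 11.1 ± 6.97 CPM in CD45- cells (SD, n = 11), and Col4a3, Col4a4 and Col4a6 had means of 5.82, 1.90 and 6.42 CPM. None of these 4 chains had a mean above 0.187 CPM in CD45+ cells.

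The type VI chains Col6a1, Col6a2 and Col6a3, which assemble together, were at 177 ± 128, 202 ± 161 and 164 ± 120 CPM in CD45- cells (SD, n = 11). In CD45+ cells they were at 7.73 ± 5.67, 7.47 ± 4.72 and 2.64 ± 2.38 CPM (SD, n = 10). Their alternative partner chains Col6a4, Col6a5 and Col6a6 were at means of 2.23, 3.99 and 0.259 CPM in CD45- cells.

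Of the chains that bind to the surface of fibers, Col14a1 was at 152 ± 113 CPM, Col16a1 at 30.5 ± 26.7 CPM and Col12a1 at 11.7 ± 7.96 CPM in CD45- cells (SD, n = 11). Col14a1 varied little among CD45+ libraries, at 10.3 to 22.2 CPM (mean 16.8 ± 3.81, SD) in the 10 libraries. It stood in another proportion to type I collagen there than in CD45- cells. The ratio of Col14a1 to Col1a2 counts was 0.159 to 0.423 (median 0.266) in CD45- libraries and 0.662 to 4.16 (median 2.22) in CD45+ libraries, without overlap. The ratio is a description, and which CD45+ cells held these reads was not tested.

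The transmembrane chains Col13a1 and Col23a1 were at 47.1 ± 38.8 and 15.6 ± 7.21 CPM in CD45- cells (SD, n = 11) and at means of 0.220 and 3.18 CPM in CD45+ cells. Col17a1, a chain of hemidesmosomes in skin, had means of 1.41 and 1.20 CPM. Col8a1, a short-chain collagen of vessel walls, was at 0 to 34.8 CPM (median 14.7) in CD45- libraries and had no count in any CD45+ library of the sample list. With a limit of 3 counts over these CD45+ libraries together, its pooled level was at least 2410-fold higher in CD45- cells. For Col28a1, a chain first described in the peripheral nerve, the corresponding bound was 471-fold. Both limits cover counting error only.

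The test between fractions was a quasi-likelihood test of edgeR over the 21 libraries with 8 group means, comparing the mean of the 4 CD45- groups with the mean of the 4 CD45+ groups. Of the 44 chains, 38 passed the filter on low counts. Of these, 25 were higher in CD45- cells at an adjusted p below 0.05, against 25.1% of the 18778 genes tested, and 1 was lower, against 24.5%. The median log2 fold change was 4.50 over the 38 chains and -0.03 over all genes. For 14 chains every CD45- library lay above every CD45+ library, which was so for 9.44% of all genes tested. Since chains of low level enter the test only where some group is above the filter, these counts describe the tested chains and not all 44.

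The largest changes among chains with counts in every group were those of Col4a1 (log2 fold change 6.71 ± 0.59, SE), Col4a2 (6.47 ± 0.55), Col15a1 (6.27 ± 0.50) and Col1a1 (5.99 ± 0.58). The adjusted p-values of these 4 chains were 1.46e-07, 9.74e-08, 4.91e-08 and 3.66e-07. Col6a3, Col3a1, Col5a1, Col1a2 and Col5a2 rose by 5.94 ± 0.74, 5.69 ± 0.50, 5.68 ± 0.71, 5.62 ± 0.50 and 5.58 ± 0.61. Col6a2, Col6a1 and Col18a1 rose by 4.61 ± 0.46, 4.52 ± 0.41 and 4.23 ± 0.43, and Col12a1, Col16a1, Col14a1 and Col23a1 by 3.94 ± 0.85, 3.84 ± 0.92, 2.95 ± 0.41 and 2.17 ± 0.57. Col11a2, which pairs with Col11a1 in cartilage, fell by 2.04 on the log2 scale (SE 0.70, adjusted p = 0.0227, edgeR's quasi-likelihood test). With total counts in place of TMM scaling the log2 fold change of Col11a2 was -1.66 (adjusted p = 0.0612), while the median of all genes moved from -0.03 to 0.27. Without CD45- Hoil1-/-Il4ra f/f replicate 2, Col16a1 and Col23a1 were no longer called, with log2 fold changes of 1.05 and -0.60, and without CD45+ Hoil1-/-Il4ra f/f replicate 3 the adjusted p of Col11a2 was 0.0549. With genotype and age as a block, a fit chosen after seeing the data, the adjusted p was 0.0988 for Col11a2 and 0.0558 for Col23a1, with log2 fold changes of -2.06 and 2.23.

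Which chains follow fibroblast and which endothelial content was asked of the 11 CD45- libraries, whose make-up varied widely. The summed level of 14 fibroblast markers, of which Dcn was the most abundant, ranged from 366 to 3817 CPM (median 1539). That of 18 blood endothelial markers, led by Plvap, ranged from 2861 to 20153 CPM (median 7534), and that of 12 epithelial markers, led by Krt8, from 1825 to 22374 CPM (median 10741). No collagen gene is in these lists. For each of the 37 chains that passed the filter in CD45- cells, the difference between log2(CPM + 0.5) of the chain and the mean log2(CPM + 0.5) of each of 7 cell type lists was taken in every library. A chain was said to follow the list for which the SD of this difference over the 11 libraries was smallest, provided it was smaller than the SD of the chain itself. This is a description of 11 libraries that share their preparation and sequencing, with no test. The fibroblast and endothelial lists themselves moved together in part, with SDs of 1.27 and 0.961 and an SD of 0.686 for their difference.

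Fibroblast content was followed by 11 chains, which were Col1a1, Col1a2, Col3a1, Col5a1, Col5a2, Col6a1, Col6a2, Col6a3, Col8a1, Col14a1 and Col16a1. The ratio was steadiest for Col14a1, whose SD fell from 1.39 on its own to 0.339 relative to the fibroblast list. It fell from 1.38 to 0.393 for Col1a2, from 1.18 to 0.394 for Col6a3, from 1.32 to 0.412 for Col6a2 and from 1.39 to 0.431 for Col3a1. Relative to the endothelial list the SD of the same chains was 0.764, 0.712, 0.606, 0.718 and 0.731. Col8a1 and Col16a1 followed loosely, with SDs of 0.970 and 1.16 against 1.97 and 1.99 on their own. Col16a1 followed the blood endothelial list without Hoil1-/-Il4ra f/f replicate 1. Without Hoil1-/-Il4ra ΔIEC replicate 1 it followed the smooth muscle and pericyte list. For 10 of the 11 chains, all but Col16a1, the SD relative to the fibroblast list was at most 0.5 times the SD of the chain.

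Blood endothelial content was followed by 8 chains, namely Col4a1, Col4a2, Col4a4, Col4a5, Col5a3, Col6a4, Col8a2 and Col15a1. The SD of Col15a1 fell from 1.11 to 0.494 relative to the endothelial list and was 0.942 relative to the fibroblast list. For Col4a1 it fell from 1.21 to 0.610 (fibroblast list 1.08) and for Col4a2 from 1.19 to 0.567 (fibroblast list 1.03). Col5a3, unlike the other type V chains, was closest to the endothelial list, with 0.612 against 0.699 for the enteric glia, 0.705 for the lymphatic endothelial and 0.782 for the fibroblast list. It kept closest to the lymphatic endothelial list with the left-out CD45- library added or without Hoil1+/+Il4ra f/f replicate 1. Without replicate 3 of that genotype it kept closest to the glia list. The list of enteric glia, at 1.84 to 28.0 CPM summed, was nearly as close to Col4a1 and Col4a2 as the endothelial list, with SDs of 0.633 and 0.594. Both chains kept closest to the glia list in place of the endothelial list without Hoil1+/+Il4ra f/f replicate 2 or without Hoil1-/-Il4ra ΔIEC replicate 3, and Col4a1 also without Hoil1-/-Il4ra f/f replicate 2. Col4a4, Col4a5, Col6a4 and Col8a2 had counts in few libraries or a low level, and only Col4a2, Col8a2 and Col15a1 had an SD of at most 0.5 times their own. With a pseudocount of 2 CPM in place of 0.5, 5 chains followed the endothelial list, Col4a1, Col4a2, Col4a5, Col5a3 and Col15a1. Col4a5 was barely closer to this list than to the fibroblast list, with SDs of 1.245 and 1.288. It followed the smooth muscle and pericyte list with list medians or without Hoil1+/+Il4ra ΔIEC replicate 1. Without replicate 2 of that genotype it followed the fibroblast list.

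**Figure D3:**
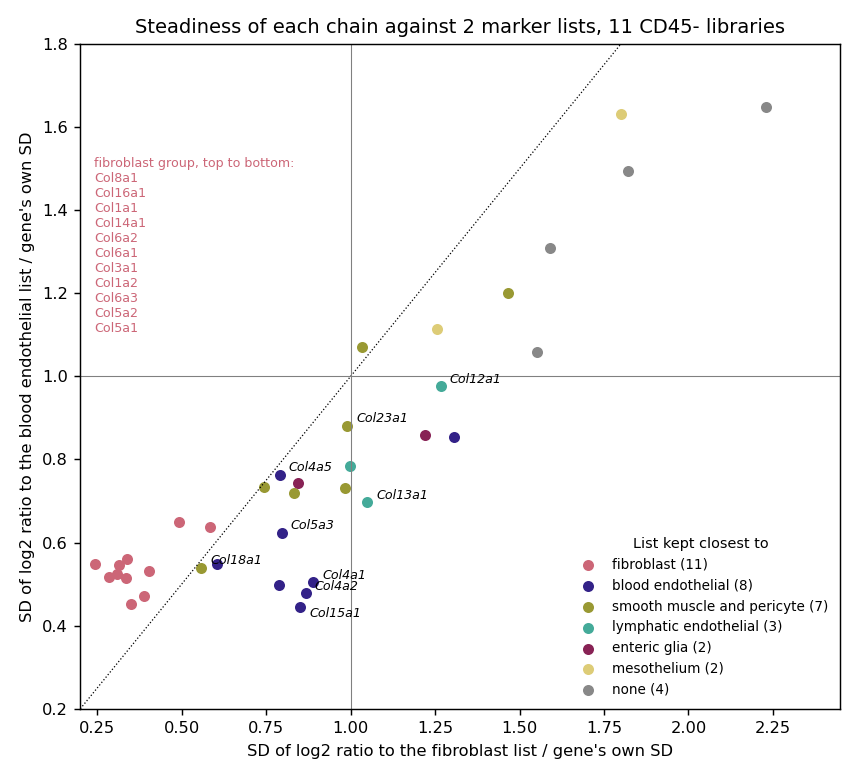
SD over 11 CD45- libraries of the log2 ratio of each of 37 chains to the fibroblast list (x axis) and to the blood endothelial list (y axis), each divided by the SD of the chain itself, with color for the list kept closest to. The 11 chains that followed the fibroblast list lie left of and above the dotted line of equal values, and Col4a1, Col4a2, Col5a3 and Col15a1 lie below it.

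The smooth muscle and pericyte list was followed by 7 chains, Col4a3, Col4a6, Col9a2, Col18a1, Col19a1, Col20a1 and Col23a1. Col18a1 was the most abundant of these per kilobase, with an SD of 0.659 against 1.43 on its own and 0.774 relative to the endothelial list. Without Hoil1-/-Il4ra f/f replicate 1 only 3 chains, Col4a6, Col9a2 and Col19a1, followed this list. Col18a1 then followed the endothelial list, as it did with the left-out CD45- library added. The lymphatic endothelial list was followed by Col6a5, Col12a1 and Col13a1, for which the SD was 0.707 for Col12a1 and 0.739 for Col13a1. Col17a1 and Col28a1 followed the enteric glia list, and Col11a1 and Col11a2 the mesothelium list, whose summed level was at most 3.53 CPM (median 0). Without Hoil1-/-Il4ra f/f replicate 1 the mesothelium list was followed by 0 chains. Without Hoil1-/-Il4ra ΔIEC replicate 3, or with list medians, it was followed by Col11a1 only. Col6a6, Col7a1, Col9a3 and Col27a1 followed none. No chain followed the epithelial list, relative to which the SD of each of the 37 chains was larger than its own, for example 2.33 for Col4a1 and 2.59 for Col1a1.

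A pair of libraries was picked to illustrate how the groups of chains can part. Both are among the 11 libraries that set the assignments, so the pair is no separate observation. Fibroblast markers summed to 2438 CPM and endothelial markers to 9321 CPM in replicate 3 of Hoil1+/+Il4ra f/f, against 1539 and 15249 CPM in replicate 3 of Hoil1+/+Il4ra ΔIEC. Col1a1 was at 1195 CPM in the former and 631 CPM in the latter, whereas Col4a1 was at 1025 and 2523 CPM. Over all 11 libraries the ratio of Col4a1 to Col1a1 counts ranged from 0.858 to 6.22.

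**Figure D4:**
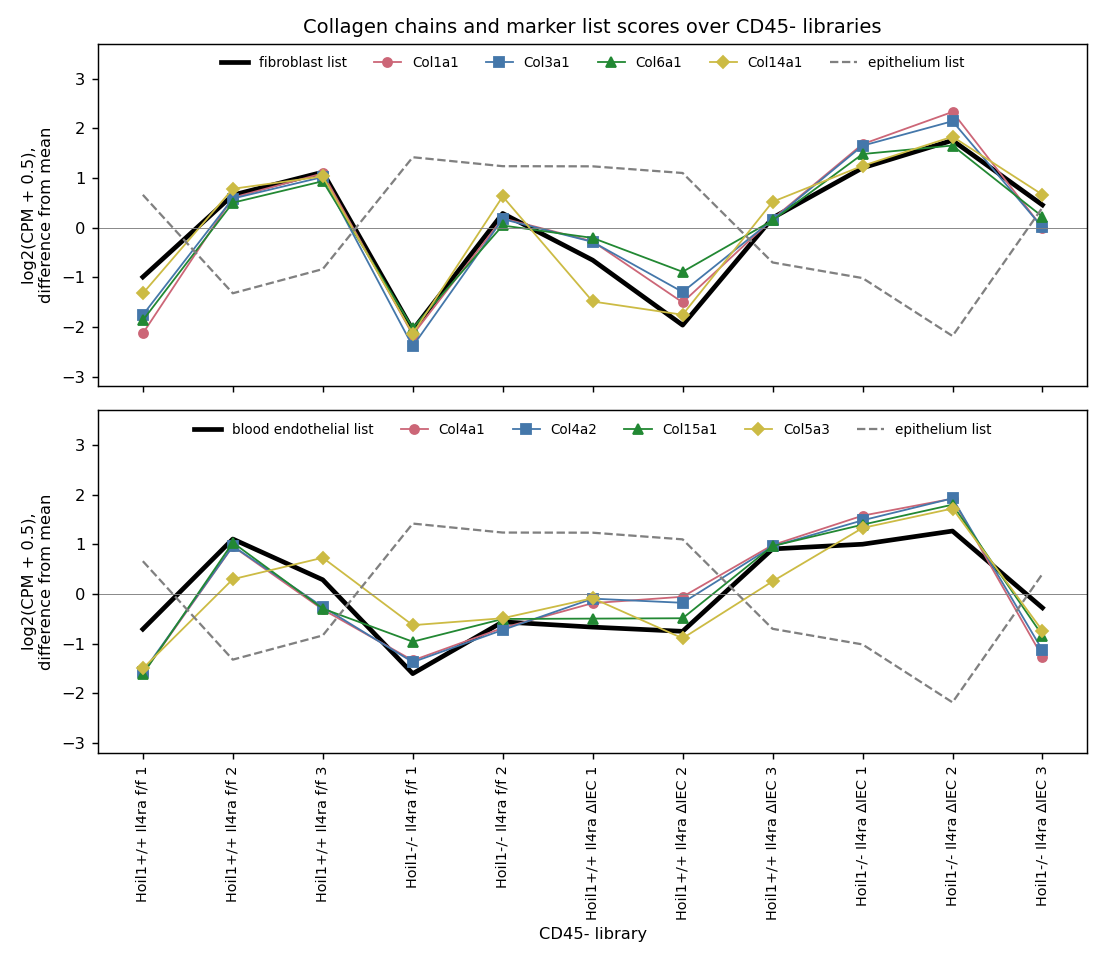
Difference from the mean over 11 CD45- libraries, as log2(CPM + 0.5), of 4 chains and the fibroblast list (upper panel) and of 4 chains and the blood endothelial list (lower panel), with the epithelium list dashed. Col1a1, Col3a1, Col6a1 and Col14a1 run with the fibroblast list and Col4a1, Col4a2 and Col15a1 with the endothelial list, and the epithelium list runs the other way.

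The sequence before the start varied among the chains. RefSeq held a start window for 35 of the 44 chains (GRCm38.p6), and the 250 bases before the start were searched on both strands for 3 motifs. TATAA was found for 7 of the 35 chains and in 22.8% of 32851 windows of all genes. CCAAT was found for 13 chains and in 33.8% of windows. The GC box GGGCGG was found for 21 chains and in 32.7% of windows. A chain was counted if any of its windows held the motif, whereas the percentages are of single windows, so the measures differ. Col3a1 and Col5a1, which both followed the fibroblast list, and Col15a1, which followed the endothelial list, are shown because their windows differ in GC content and in the motifs they hold. The window of Col3a1 (chr1:45311288-45311537, plus strand) had a GC content of 35.2% and held TATAA on both strands, overlapping as TTATAA. That of Col5a1 (chr2:27886175-27886424, plus strand) had 76.4% GC and 2 matches to GGGCGG, and that of Col15a1 (chr4:47207762-47208011, plus strand) had 53.6% GC and no match to the 3 motifs. Capitals mark the matches, which describe letters and not sites in use.
Col3a1: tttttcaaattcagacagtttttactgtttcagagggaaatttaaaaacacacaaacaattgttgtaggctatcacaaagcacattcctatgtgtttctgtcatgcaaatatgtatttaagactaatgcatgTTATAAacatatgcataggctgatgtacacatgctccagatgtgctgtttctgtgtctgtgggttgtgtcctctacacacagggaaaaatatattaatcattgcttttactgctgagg
Col5a1: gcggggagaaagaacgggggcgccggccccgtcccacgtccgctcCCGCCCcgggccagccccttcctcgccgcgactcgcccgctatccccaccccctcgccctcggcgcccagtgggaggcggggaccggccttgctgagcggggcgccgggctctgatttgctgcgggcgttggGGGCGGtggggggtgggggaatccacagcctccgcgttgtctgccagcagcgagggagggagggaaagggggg
Col15a1: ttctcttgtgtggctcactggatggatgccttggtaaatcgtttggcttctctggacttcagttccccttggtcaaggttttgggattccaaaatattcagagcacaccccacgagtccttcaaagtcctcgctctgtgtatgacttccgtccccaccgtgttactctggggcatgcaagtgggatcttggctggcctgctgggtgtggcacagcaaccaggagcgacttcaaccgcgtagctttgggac

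The effect of HOIL1 on the chains was tested in CD45- cells as the mean of both Il4ra backgrounds, within each background, and as the interaction, by edgeR's quasi-likelihood test over 16453 genes, 37 of them chains. In Il4ra f/f mice most chains had lower values in Hoil1-/- than in Hoil1+/+ libraries, and in Il4ra ΔIEC mice most had higher values. However, no chain passed an adjusted p of 0.05 in any contrast. Col1a1 was at 128, 853 and 1195 CPM in Hoil1+/+Il4ra f/f and at 125 and 638 CPM in Hoil1-/-Il4ra f/f libraries. It was at 462, 197 and 631 CPM in Hoil1+/+Il4ra ΔIEC and at 1799, 2821 and 559 CPM in Hoil1-/-Il4ra ΔIEC libraries. In both backgrounds the ranges overlapped, and the left-out Hoil1-/-Il4ra f/f library was above all f/f libraries at 2169 CPM. Col4a1 was at 419, 2478 and 1025 CPM in Hoil1+/+Il4ra f/f and at 503 and 792 CPM in Hoil1-/-Il4ra f/f libraries. It was at 1120, 1225 and 2523 CPM in Hoil1+/+Il4ra ΔIEC and at 3804, 4821 and 529 CPM in Hoil1-/-Il4ra ΔIEC libraries, again with overlap. Replicates 1 and 2 of Hoil1-/-Il4ra ΔIEC were the highest of the 11 libraries for both chains.

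In Il4ra f/f mice, 0 of 37 chains were called for HOIL1 in CD45- cells (all genes 0.0365%), and 3 had an unadjusted p below 0.05, all lower (all genes 13.1%). The median log2 fold change was -1.06 over the 29 chains with counts in every group, 1 of which was above 0, and -0.17 over all genes. Over all 37 chains tested the median was -1.21, and it was -0.27 with the left-out Hoil1-/-Il4ra f/f library added. Col18a1 had the log2 fold change farthest below 0 among the chains with counts in every group, at 58.5, 129 and 149 CPM in Hoil1+/+ and 5.16 and 39.3 CPM in Hoil1-/- libraries. The groups did not overlap, as was so in this direction for 19.2% of all genes and 4 of 37 chains, but the left-out Hoil1-/- library was at 91.0 CPM, and the log2 fold change of -2.34 ± 0.81 (SE) had an adjusted p of 0.349. DESeq2, the likelihood ratio test and exactTest also called 0 chains (all genes 4.09%, 2.13% and 1.23%). Without Hoil1-/- replicate 2, which leaves replicate 1 alone and assumes that it varies like the other groups, 5 chains were called lower, namely Col18a1 and 4 chains with no count in replicate 1, Col16a1, Col20a1, Col23a1 and Col4a6 (all genes 2.71%).

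Marker lists of whole cell types had values on either side of 0 in the same f/f contrast. At an unadjusted p below 0.05, 12 of 12 smooth muscle and pericyte and 4 of 18 blood endothelial markers were lower. At the same threshold 3 of 12 epithelial markers were higher (all genes 13.1% in either direction). None of these markers were called. The median log2 fold change was -1.85, -1.29 and 1.48 over these lists and -1.04 over the fibroblast list. The smooth muscle and pericyte list, which Col18a1 followed, summed to 3741, 5196 and 5966 CPM in Hoil1+/+ and 549 and 2389 CPM in Hoil1-/- libraries, and to 789 CPM in the left-out one. Of 5 tuft cell markers, 2 were called higher in Hoil1-/- libraries (all genes 0.0365% in either direction). The part of the cell type make-up in the levels of the chains was not tested.

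In Il4ra ΔIEC mice, 0 of 37 chains were called (all genes 0.00608%), and 7 had an unadjusted p below 0.05, all higher in Hoil1-/- (all genes 7.66%). With the left-out Hoil1-/-Il4ra f/f library added to the fit, only 1 chain had an unadjusted p below 0.05. The median log2 fold change was 1.26 over the 33 chains with counts in every group, 29 of which were above 0, and 0.06 over all genes. The 6 of the 7 chains with counts in every group were Col1a1 (log2 fold change 1.99 ± 0.86, SE), Col3a1 (1.86 ± 0.81), Col14a1 (1.85 ± 0.82), Col6a2 (1.82 ± 0.74), Col5a2 (1.71 ± 0.77) and Col5a1 (1.67 ± 0.74), each at an adjusted p of 0.628. DESeq2 and the likelihood ratio test each called 1 chain (all genes 0.921% and 0.377%), Col19a1, which had no count in 1 of the groups, and exactTest called 0 chains (all genes 0.243%). All 6 are chains that followed the fibroblast list. Those assignments were made over the same 11 libraries, so the closeness of these chains to the list here is no separate observation, and the part of fibroblast content in the difference was not tested. The summed level of the list was at 2863, 3817 and 1719 CPM in Hoil1-/-Il4ra ΔIEC and 683, 366 and 1539 CPM in Hoil1+/+Il4ra ΔIEC libraries. Its median log2 fold change was 1.97, with 14 of 14 markers above 0 and 5 at an unadjusted p below 0.05. The median was 0.82 over the blood endothelial list (18 of 18 above 0) and 0.69 over the smooth muscle and pericyte list (10 of 12). Over the epithelial list it was -1.18 (0 of 12 above 0), with 3 markers lower at an unadjusted p below 0.05. None of these markers were called. Relative to the fibroblast list the log2 ratio of Col1a1 was 4.43 ± 0.57 in Hoil1-/-Il4ra ΔIEC and 4.50 ± 0.26 in Hoil1+/+Il4ra ΔIEC libraries (SD, n = 3 each), and that of Col3a1 was 4.46 ± 0.50 and 4.67 ± 0.35.

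The basement membrane chains were set against the endothelial list in the same way and with the same limit. Col15a1 relative to that list was at a log2 ratio of 1.50 ± 0.59 in Hoil1-/-Il4ra ΔIEC and 1.55 ± 0.10 in Hoil1+/+Il4ra ΔIEC libraries (SD, n = 3 each), and Col4a1 at 2.55 ± 0.93 and 2.89 ± 0.31. The endothelial list itself was at 16496, 20153 and 7534 CPM in the former and 5126, 4906 and 15249 CPM in the latter.

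The interaction of HOIL1 with Il4ra gave 0 called chains in CD45- cells (all genes 0%), and 10 chains at an unadjusted p below 0.05, all with a higher HOIL1 effect in ΔIEC mice (all genes 20.7%). The median was 2.35 over 29 chains, 28 of which were above 0, and 0.29 over all genes. Over all 37 chains it was 2.41, and with the left-out library added it was 1.47, with 2 chains at an unadjusted p below 0.05. Col18a1 had the smallest p among chains with counts in every group (3.40 ± 1.04, adjusted p = 0.145), followed by Col5a1 (3.23 ± 1.14, adjusted p = 0.176). By DESeq2 these 2 chains passed at adjusted p-values of 0.0171 and 0.0396, together with Col19a1 and Col4a4, which had a group without counts. DESeq2 called 9.78% of all genes for the interaction, so that 4 of 37 chains were near that share, and the likelihood ratio test called 3 chains and 7.43% of all genes. Of the cell type markers 0 were called in these lists. At an unadjusted p below 0.05, 12 of 12 smooth muscle and pericyte, 12 of 18 blood endothelial and 5 of 14 fibroblast markers had positive and 11 of 12 epithelial markers negative values. The summed epithelial list was at 22374 and 20661 CPM in Hoil1-/-Il4ra f/f and 3923, 1825 and 10741 CPM in Hoil1-/-Il4ra ΔIEC libraries. It was at 11923, 2935 and 4538 CPM in Hoil1+/+Il4ra f/f and 21072, 19227 and 4525 CPM in Hoil1+/+Il4ra ΔIEC libraries. The part of the cell type make-up in the interaction was not tested. Without Hoil1-/-Il4ra f/f replicate 2, 6 chains were called for the interaction (all genes 4.13%), and without Hoil1+/+Il4ra ΔIEC replicate 3 there was 1 (all genes 7.48%).

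Averaged over Il4ra, HOIL1 gave 0 called chains in CD45- cells (all genes 0.0182%) and 1 at an unadjusted p below 0.05, Col11a1, which had counts in 3 libraries only (all genes 5.28%). Col6a6 and Col4a4, next by p, had adjusted p-values of 0.927. DESeq2 and the likelihood ratio test called 0 chains (all genes 1.06% and 0.821%), and without Hoil1-/-Il4ra f/f replicate 2 there was 1, Col23a1 (all genes 0.988%). For Il4ra averaged over Hoil1, 0 chains were called (all genes 0%) and 5 were higher in ΔIEC mice at an unadjusted p below 0.05 (all genes 5.9%). Those were Col9a3, Col4a4, Col17a1, Col28a1 and Col4a2, the first 3 with a group without counts, and DESeq2 called Col9a3 (all genes 1.06%) and the likelihood ratio test 0 chains (all genes 0.869%). Col4a2 had a log2 fold change of 1.25 ± 0.57 and Col4a1, just short of the threshold, one of 1.27 ± 0.59, both at an adjusted p of 0.808. Without Hoil1-/-Il4ra f/f replicate 2, 3 chains were called, Col16a1, Col20a1 and Col23a1 (all genes 1.26%). With the left-out library added, 1 chain had an unadjusted p below 0.05 in the quasi-likelihood test. Of 6 enteric glia markers, the list that Col17a1 and Col28a1 followed, 4 were higher in ΔIEC mice at an unadjusted p below 0.05 and 0 were called (median log2 fold change 4.60).

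In CD45+ cells the levels of the chains were low throughout. Several fibrillar and type VI chains had higher values in Hoil1-/- than in Hoil1+/+ libraries of Il4ra ΔIEC mice. Over 17029 genes, 29 of them chains, 0 chains were called in ΔIEC mice (all genes 0%), and 9 had an unadjusted p below 0.05, all higher (all genes 6.08%). With the left-out CD45+ libraries added to the fit, 4 chains had an unadjusted p below 0.05. Col6a1 was at 1.19, 1.81 and 3.58 CPM in Hoil1+/+Il4ra ΔIEC and 14.6 and 18.7 CPM in Hoil1-/-Il4ra ΔIEC libraries, and at 15.2 CPM in the left-out one. Col3a1 was at 4.85, 9.74 and 4.90 CPM in the former and 27.9 and 53.1 CPM in the latter, and at 27.7 CPM in the left-out library. For both chains the groups did not overlap, with or without that library. The Hoil1-/- libraries lay above all Hoil1+/+ libraries for 14% of all genes, and for 4.33% with the left-out library. The log2 fold change was 2.90 ± 0.51 for Col6a1 (adjusted p = 0.351), 2.62 ± 0.48 for Col3a1 and 2.41 ± 0.45 for Col1a2 (both adjusted p = 0.388), and 2.65 ± 0.65 for Col1a1 (adjusted p = 0.642). Col1a1 was at 16.8 and 47.8 CPM in Hoil1-/-Il4ra ΔIEC and 4.27, 5.67 and 5.24 CPM in Hoil1+/+Il4ra ΔIEC libraries, and at 6.54 CPM in the left-out library, far nearer to the latter. By DESeq2, by the likelihood ratio test and by the exactTest of edgeR these same 4 chains passed, with adjusted p-values of 1.54e-04, 6.02e-04 and 0.00101 for Col6a1, while these tests called 1.08%, 0.299% and 0.235% of all genes. The median was 1.52 over 24 chains, 21 of which were above 0, and -0.06 over all genes.

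In CD45+ cells of Il4ra f/f mice, 0 chains were called by the quasi-likelihood test (all genes 0%) or by DESeq2, the likelihood ratio test and exactTest (all genes 0.617%, 0.388% and 0.288%), and 3 were higher at an unadjusted p below 0.05 (all genes 5.27%). These were Col7a1, Col13a1 and Col17a1, with means of 0.644, 0.220 and 1.20 CPM over the fraction. Col6a1 was at 11.4, 7.32 and 7.35 CPM in Hoil1+/+Il4ra f/f and 4.55 and 6.68 CPM in Hoil1-/-Il4ra f/f libraries, without overlap, but at 27.3 CPM in the left-out library. The Hoil1-/- libraries lay below all Hoil1+/+ libraries for 7.22% of all genes and 2 of 29 chains. With the left-out library this was so for 3.05% of all genes and 0 of 29 chains. The median over the chains tested was -0.38, and 0.53 with that library added. The interaction called 0 chains (all genes 0%), with 5 higher and 2 lower at an unadjusted p below 0.05 (all genes 7.01%). The smallest p-values were those of Col6a1 (3.56 ± 0.74), Col3a1 (3.25 ± 0.70) and Col1a2 (2.78 ± 0.65), each at an adjusted p of 0.591. DESeq2 and the likelihood ratio test called these 3 chains (all genes 1.02% and 0.399%). With the left-out libraries added, 2 chains had an unadjusted p below 0.05 for the interaction in the quasi-likelihood test.

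Averaged over Il4ra, HOIL1 gave 0 called chains in CD45+ cells (all genes 0.00587%) and 7 higher at an unadjusted p below 0.05 (all genes 5.85%), among them Col1a2 (1.02 ± 0.32), Col6a1 (1.13 ± 0.35) and Col7a1, each at an adjusted p of 0.783. DESeq2 and the likelihood ratio test called 0 chains (all genes 0.771% and 0.605%). For Il4ra averaged over Hoil1, 0 chains were called (all genes 0.00587%) and 0 had an unadjusted p below 0.05 (all genes 10.6%) by the quasi-likelihood test. At an unadjusted p below 0.05 there were 4 by the likelihood ratio test and 1 by DESeq2, and neither test called a chain after adjustment (all genes 1.18% and 2.31%). The chains with the smallest p there were Col7a1, Col17a1 and Col9a2.

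Stromal marker lists were measured in the same CD45+ libraries. At an unadjusted p below 0.05, 2 of 12 fibroblast, 5 of 18 blood endothelial and 2 of 11 smooth muscle and pericyte markers were higher in Hoil1-/-Il4ra ΔIEC than in Hoil1+/+Il4ra ΔIEC mice (all genes 6.08%), and 4 of 12 epithelial markers were lower. None of these markers were called. The summed fibroblast list was at 84.0 and 136 CPM in Hoil1-/-Il4ra ΔIEC and at 53.7, 43.5 and 86.5 CPM in Hoil1+/+Il4ra ΔIEC libraries. The blood endothelial list was at 216 and 338 CPM in the former and 101, 128 and 158 CPM in the latter, and the epithelial list at 124 and 89.3 CPM against 685, 462 and 97.3 CPM. In the left-out Hoil1-/-Il4ra ΔIEC library the fibroblast list was at 78.6 CPM, within the range of the Hoil1+/+Il4ra ΔIEC libraries, and the blood endothelial list at 72.6 CPM, below it. The smooth muscle and pericyte list was at 54.0 and 82.5 CPM in Hoil1-/-Il4ra ΔIEC, at 85.5 CPM in the left-out library and at 28.9, 16.9 and 22.5 CPM in Hoil1+/+Il4ra ΔIEC libraries, without overlap. The median log2 fold change was 1.66 over this list, with 10 of 11 markers above 0. It was 1.83 over the fibroblast list (11 of 12 above 0) and 1.86 over the blood endothelial list (18 of 18 above 0). It was -1.89 over the epithelial list (0 of 12 above 0) and -0.06 over all genes. Dcn was at a mean of 11.2 CPM and Plvap at 33.0 CPM in CD45+ cells, and the mesothelium markers were at 0 in all 10 libraries. The part of stromal RNA among the CD45+ cells in the levels of the chains was not tested. Col14a1 was at 16.5 and 19.5 CPM in Hoil1-/-Il4ra ΔIEC and 12.8, 10.3 and 15.1 CPM in Hoil1+/+Il4ra ΔIEC libraries, with a log2 fold change of 0.48 ± 0.29 (adjusted p = 0.780).

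**Figure D5:**
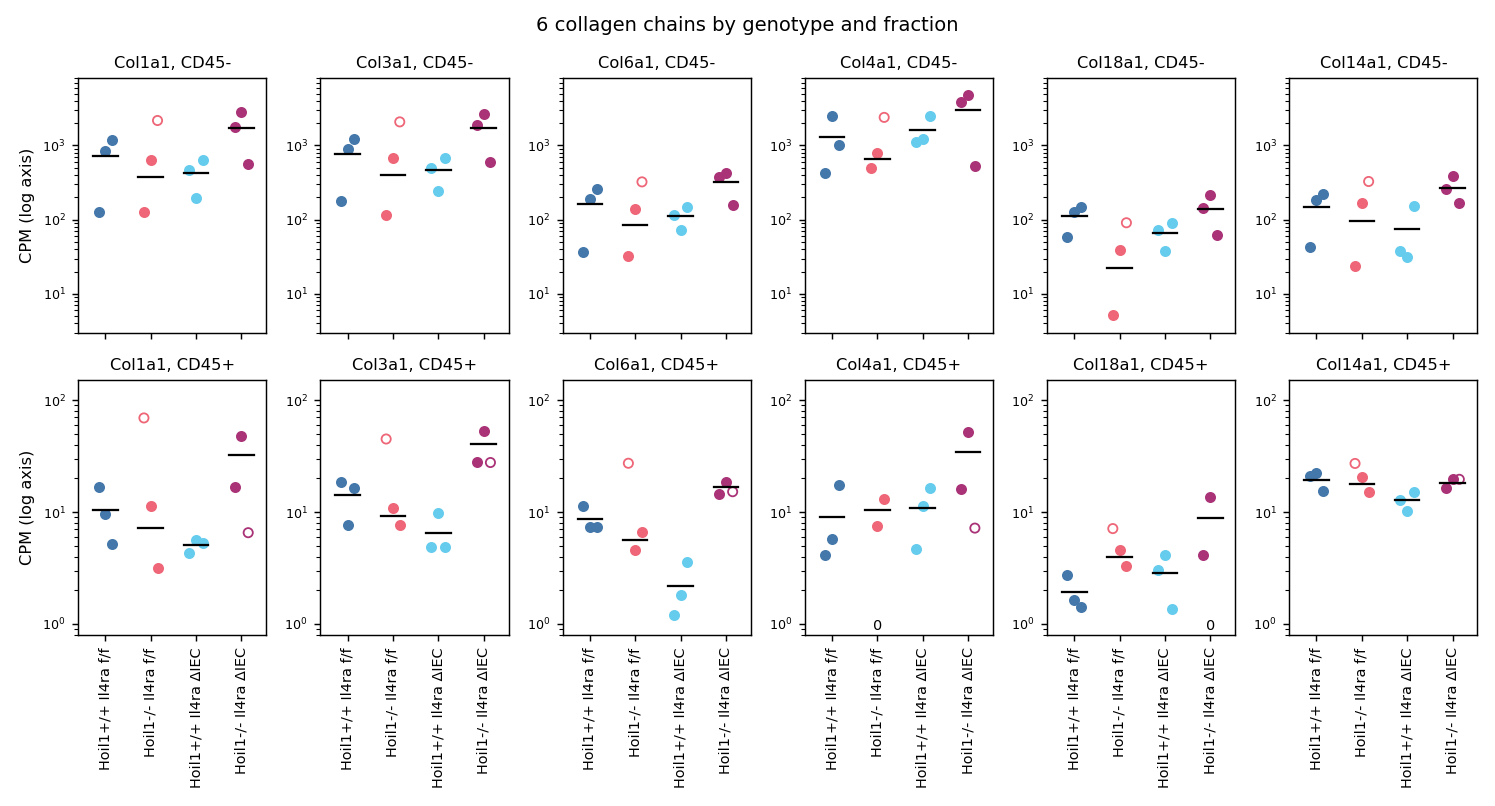
Level (CPM, log axis) of 6 chains in each library by genotype, in CD45- (upper) and CD45+ cells (lower), with open symbols for the 3 left-out libraries, black lines at the means of the others and 0 where a library had no count. In CD45+ cells Col6a1 is at 14.6 to 18.7 CPM in Hoil1-/-Il4ra ΔIEC libraries and at 1.19 to 3.58 CPM in Hoil1+/+Il4ra ΔIEC libraries.

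Most lists of genes that act on collagen had more members higher than lower in CD45- cells, and the list for breakdown had as many of either kind. Of all genes tested, 25.1% were higher and 24.5% lower. Of 17 genes for folding and modification of collagen, 7 were higher and 1 lower in CD45- cells by edgeR's quasi-likelihood test. P4hb, a subunit of prolyl 4-hydroxylase that also serves other proteins, was at a mean of 1001 CPM in CD45- and 497 CPM in CD45+ cells. Serpinh1, the chaperone dedicated to collagen, was at 438 and 6.13 CPM. Of 13 genes for processing and cross-linking, 9 were higher and 2 lower, with Pxdn, which cross-links type IV collagen, at 105 and 0.980 CPM and Bmp1, which cleaves procollagen ends, at 63.8 and 1.92 CPM.

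Genes for breakdown were divided evenly, with 4 of 10 higher and 4 lower in CD45- cells, and the inhibitors Timp3 and Timp2 were at 497 and 143 CPM there and at 5.71 and 46.4 CPM in CD45+ cells. Of 8 collagen receptors tested, 6 were higher and 1 lower. The integrin chain Itgb1 was at 328 and 135 CPM, and Itga1, its partner for collagen binding, was at 93.4 and 45.9 CPM without passing the test (adjusted p = 0.113). Of 16 partners in basement membranes, 15 were higher and none lower, with Hspg2 (perlecan) at 1364 and 11.9 CPM and Sparc, which binds collagen, at 1050 and 16.8 CPM. In the 10 genotype contrasts, 0 genes of these 5 lists were called.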

How the data were processed

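Ileal cells were sorted into CD45+ and CD45- fractions, and poly-A selected RNA was amplified by PCR without molecular identifiers stated, so intervals and limits cover counting error only. Adapter-trimmed reads were mapped by the authors with STAR on mm10, assigned to genes with featureCounts and deposited as raw counts of 39056 genes in 24 libraries. Versions and the strand setting of the counting are not given in the sources used here. Gene identifiers were matched without version to GENCODE M21 (38872 matched; all 44 chains, 36 with the same version). Groups were taken from the genotype and cell type labels. Identifiers with no match were kept in library sizes and tests.

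Counts were tested with the quasi-likelihood test of edgeR 4.0.16 (R 4.3.3) with TMM scaling, 1 mean per group, filterByExpr (minimum count 10, minimum total 15), Benjamini-Hochberg adjustment over all genes and a threshold of 0.05, two-sided. The fractions were fitted together for the contrast between them and separately for genotypes. Levels per kb divide CPM by the annotated exon length, taken over all transcripts of a gene. Marker list scores used log2(CPM + 0.5). Alternatives were all 24 libraries, RLE size factors, total counts, no filter, DESeq2 1.42.0, the likelihood ratio test, exactTest, leaving out each library, genotype and age as a block (added after seeing the data), and for the ratios a pseudocount of 2 CPM, list medians and a stricter limit. Shares of all genes by DESeq2 are of those with an adjusted p. The edgeR steps were checked on simulated counts with seeded fold changes.

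The chains and marker lists were chosen with earlier results of these data known. Chains named were those at a mean of 10 CPM or more in a fraction, any past the threshold in a genotype contrast, the 3 with the smallest p in each averaged and interaction contrast, and any with no count. Of each related list the 2 genes highest in CD45- cells were named. Other chains were named after their values were seen.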

Additional observations from a re-analysis of the deposited data

Results flagged for a closer look

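For 3 chains every Hoil1-/- library of the sample list lay below every Hoil1+/+ library in Il4ra f/f mice and above every one in Il4ra ΔIEC mice. This was 1 of 37 chains in CD45- cells (all genes 1.65%) and 2 of 29 in CD45+ cells (all genes 1.43%). Each had an unadjusted p below 0.05 for the interaction term, as had other chains whose libraries overlapped in a background. Since these 3 chains were picked by opposite separation in the backgrounds, their small interaction p is no separate observation. None passed adjustment over all genes in edgeR's quasi-likelihood test. In CD45- cells this was Col19a1, a fiber-associated chain (unadjusted p = 0.00183, adjusted p = 0.121). It was at 1.13, 0.860 and 1.29 CPM in Hoil1+/+Il4ra f/f and 0.186, 2.27 and 3.60 CPM in Hoil1-/-Il4ra ΔIEC libraries, and had no count in the libraries of the other 2 genotypes in the sample list. In CD45+ cells it was Col6a1 (unadjusted p = 7.33e-04, adjusted p = 0.591), with log2 fold changes of -0.65 ± 0.51 in f/f and 2.90 ± 0.51 in ΔIEC mice, and Col6a2 (unadjusted p = 0.00908, adjusted p = 0.694), with -0.97 ± 0.60 and 1.74 ± 0.57. The left-out CD45+ Hoil1-/-Il4ra f/f library had 27.3 CPM of Col6a1, above the other f/f libraries. With it added, the mean of Col6a2 in CD45+ Hoil1-/-Il4ra f/f libraries was 11.9 CPM in place of 4.49 CPM, against 8.72 CPM in Hoil1+/+Il4ra f/f libraries. The left-out CD45+ Hoil1-/-Il4ra ΔIEC library had 15.2 CPM of Col6a1 and no count of Col6a2.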

How the results depend on the processing

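Counts of called chains in the quasi-likelihood test were 0 for all 10 genotype contrasts, also with all 24 libraries, RLE size factors and no filter. They differed by test. For HOIL1 in Il4ra ΔIEC mice, DESeq2, the likelihood ratio test and exactTest each called 4 chains in CD45+ cells, and DESeq2 and the likelihood ratio test 1 each in CD45- cells. For the interaction, these 2 called 3 each in CD45+ and 4 and 3 in CD45- cells. For Il4ra in CD45- cells DESeq2 called 1. The cause of these differences was not tested. Leaving out 1 library at a time gave 20 to 27 chains called between fractions, 0 to 0 in each CD45+ contrast, and in CD45- cells 0 to 1 for HOIL1 averaged, 0 to 5 for HOIL1 in f/f, 0 to 0 in ΔIEC, 0 to 3 for Il4ra and 0 to 6 for the interaction. The highest values of the CD45- genotype contrasts, and the lowest between fractions, came without CD45- Hoil1-/-Il4ra f/f replicate 2, without which the log2 fold change of Col23a1 between fractions was -0.60, against up to 2.42 without other libraries. Without Hoil1+/+Il4ra ΔIEC replicate 3, 1 chain was called for the interaction. The fibroblast list was followed by 10 to 12 chains and the blood endothelial list by 5 to 9. The latter was followed by 5 chains with a pseudocount of 2 CPM and by 3 where the SD had to be at most 0.5 times that of the chain. No paired analysis was possible because the labels give no replicate numbers and do not say which libraries share a mouse. Ages in the labels match between the fractions for part of the libraries. With genotype and age as a block, chosen after seeing the data, 25 chains were higher and 0 lower in CD45- cells. Groups of 2 or 3 libraries, PCR copies and zeros in deep libraries limit what can be said, above all of chains of low level. Zeros also occurred for chains with a mean above 10 CPM in their fraction, such as Col16a1 in CD45- cells.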

Other observations

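Some chains were at 0 in single libraries while a neighbor or partner chain, or the same chain in other libraries of the fraction, had counts (M, 1000000 counts). In the left-out CD45+ Hoil1-/-Il4ra f/f library, of 27.2 M counts, Col4a1 had 0 counts while Col4a2, its neighbor and partner chain, had 254. In the left-out CD45+ Hoil1-/-Il4ra ΔIEC library, of 32.4 M counts, Col6a2 and Col18a1 had 0 counts and Col6a1 had 351. In CD45+ Hoil1+/+Il4ra f/f replicate 1, of 60.5 M counts, Col5a1 had 0 counts. In CD45- Hoil1-/-Il4ra f/f replicate 1, Col16a1, Col23a1, Col20a1, Col4a6 and Col8a1 had 0 counts among 12.1 M.

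The ratio of Col1a1 to Col1a2 counts, chains of the same molecule, was 1.27 to 1.93 in CD45- libraries and 0.469 to 1.79 in CD45+ libraries, and that of Col4a1 to Col4a2 was 1.13 to 1.34 and 0.646 to 2.17.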
